A study of Mus musculus with 15 samples.

Results

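The genes described here are the core genes of the circadian clock, 10 of the 55536 genes in the deposited tables: Arntl, Clock, Npas2, Per1, Per2, Per3, Cry1, Cry2, Nr1d1 and Nr1d2. They were chosen by gene name and were read in all 15 samples. The samples were skeletal muscle of male mice aged 2 months, 5 in each of 3 groups. The controls were labelled wild type. The knockout group was labelled as lacking PdgfrB, a receptor for platelet-derived growth factor, through a deletion specific to myogenin, a transcription factor of differentiating muscle cells. The third group was labelled PdgfrB D489V, a receptor form that the study describes as constitutively active, again specific to myogenin. By these labels both alleles act through myogenin, and RNA of whole muscle does not show in which cells the receptor differed. The muscle, the strain, the litter, the time of day at which tissue was taken and whether each sample came from a separate mouse are not given in the sources used here. The p-values therefore measure the spread between these samples, and group and time of collection cannot be told apart.

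In the circadian clock, BMAL1 (the protein of Arntl) pairs with CLOCK, or with its relative NPAS2, and switches on genes that carry E-boxes. The PER and CRY proteins made from such genes then block that pair, and the delay between the steps gives a rhythm close to the length of a day. In a second loop, the REV-ERB receptors (Nr1d1, Nr1d2) repress Arntl and Npas2, while ROR receptors activate them. In skeletal muscle this clock is known for timing the use of glucose and lipid. Per2 and Arntl normally peak at opposite times, so their levels in a single tissue sample depend in part on when it was taken.

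A few facts on the libraries bear on what follows. The 6 markers of skeletal myofibres (among them Ckm and Acta1) were above 0 in all 15 samples, and the 15 sums of normalized counts over all genes lay between 29815559 and 36489777. Knockout samples 3, 4 and 5 and control 5 stood apart, with summed counts of 6 B lymphocyte markers of 1560, 5321, 1349 and 5354, against 25 to 245 elsewhere. The slow fibre marker sum was 103066 to 163879 in knockout 3 to 5, 162300 in control 5 and 181923 in D489V 3, and 3439 to 68777 in the other 10 samples. Endothelial marker sums were 6761 to 7400 in knockout 3 to 5, and 10432 to 15766 elsewhere. Knockout 3, labelled male, held 3165 normalized counts of Xist, an RNA made from the inactive X chromosome, and 367 of the Y-linked gene Ddx3y, while the other samples held at most 101 of Xist and at least 1437 of Ddx3y. Pdgfrb itself was 1673 to 1848 in controls, 1475, 1628, 1138, 1339 and 958 in knockout 1 to 5, and 820 to 1062 in D489V. Values below are normalized counts unless another scale is named, and in whole muscle fewer cells of a type and less RNA per cell cannot be told apart.

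Clock-related sequence motifs were looked for around the members' starts, and the stretches with a match are printed. Members bind the E-box and the ROR element, and the bZIP factors described further on bind the D-box. The cyclic AMP response element and the CArG box are bound by other factors. RefSeq (GRCm38.p6) windows of 300 bases, 250 before and 50 after a gene's start, matched 9 of the 10 members by symbol, in 13 windows. Per2 was not among them. The motifs searched on both strands were the E-box CACGTG, the ROR element core TAGGTCA, the D-box TTANNTAA, the cyclic AMP response element core TGACGT and the CArG box. Of 32851 windows of all genes, 7.15% held the E-box, 2.61% the ROR core, 6.0% the D-box, 7.51% the cyclic AMP core and 1.63% the CArG box. Capitals mark the match in each stretch, written 5′ to 3′ on the gene's strand. The Per1 stretches lie on the plus strand at chr11:69098699-69098947 and chr11:69099902-69100151, before 2 different starts, the Cry1 stretch on the minus strand at chr10:85185065-85185304, the Per3 stretch on the minus strand at chr4:151044666-151044915, and the Arntl stretch on the plus strand at chr7:113207530-113207559, in an annotated exon.
Per1 first start: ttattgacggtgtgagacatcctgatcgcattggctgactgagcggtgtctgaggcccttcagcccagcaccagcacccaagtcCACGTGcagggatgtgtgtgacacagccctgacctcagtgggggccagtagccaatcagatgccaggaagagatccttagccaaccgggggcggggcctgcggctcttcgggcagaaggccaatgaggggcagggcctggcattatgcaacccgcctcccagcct
Per1 second start: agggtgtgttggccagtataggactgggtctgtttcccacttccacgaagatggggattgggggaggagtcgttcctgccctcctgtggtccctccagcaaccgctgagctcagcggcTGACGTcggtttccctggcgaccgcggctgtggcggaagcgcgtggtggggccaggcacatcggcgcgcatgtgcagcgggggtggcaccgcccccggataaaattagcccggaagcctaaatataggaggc
Cry1: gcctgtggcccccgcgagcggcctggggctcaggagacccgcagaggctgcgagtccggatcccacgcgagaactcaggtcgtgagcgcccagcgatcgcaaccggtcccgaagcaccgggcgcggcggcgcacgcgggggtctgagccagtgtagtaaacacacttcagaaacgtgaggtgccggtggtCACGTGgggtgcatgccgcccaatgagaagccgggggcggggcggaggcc
Per3: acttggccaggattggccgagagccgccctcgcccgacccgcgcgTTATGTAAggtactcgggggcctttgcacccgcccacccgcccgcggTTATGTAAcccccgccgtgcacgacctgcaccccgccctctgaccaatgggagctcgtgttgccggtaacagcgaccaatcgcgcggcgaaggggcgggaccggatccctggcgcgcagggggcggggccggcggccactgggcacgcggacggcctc
Arntl: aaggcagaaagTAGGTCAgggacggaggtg

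The E-box began at position -166 from the first Per1 start and at -60 from the Cry1 start, and the cyclic AMP core at -132 from the second Per1 start. Per3 held the D-box at -205 and again at -158, and Arntl held the ROR core at 31, after its second start. The window of the first Arntl start held none of the 5 motifs. No match overlapped another. The windows of Clock, Npas2, Cry2, Nr1d1 and Nr1d2 held none of the 5 motifs, which says only that these letters are not in those windows. A match is a description of the sequence and not a binding site shown in these samples.

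In controls the members spanned a wide range of levels. Per kilobase of annotated exon, the mean normalized count was 1517.5 ± 176.8 (SD, n = 5) for Nr1d1 and 559.9 ± 57.4 for Nr1d2, the highest of the 10. Per1 followed at 267.0 ± 191.3, Cry1 at 125.2 ± 13.5 and Cry2 at 118.7 ± 31.3. Arntl, Clock and Per3 lay close together at 66.5 ± 9.33, 60.3 ± 5.11 and 55.1 ± 10.2, and Npas2 and Per2 were lowest at 26.5 ± 6.39 and 14.1 ± 3.0. Neighbours in this order whose control samples did not overlap were Nr1d1 and Nr1d2, Cry2 and Arntl, Per3 and Npas2, and Npas2 and Per2. The order of the remaining neighbours was within the spread of the samples. Over all 15 samples, the ratio of the highest to the lowest normalized count was 8.82 for Per2, 6.66 for Per1 and 6.0 for Npas2, and 1.43 for Clock, the steadiest member by this measure.

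**Figure D1:**
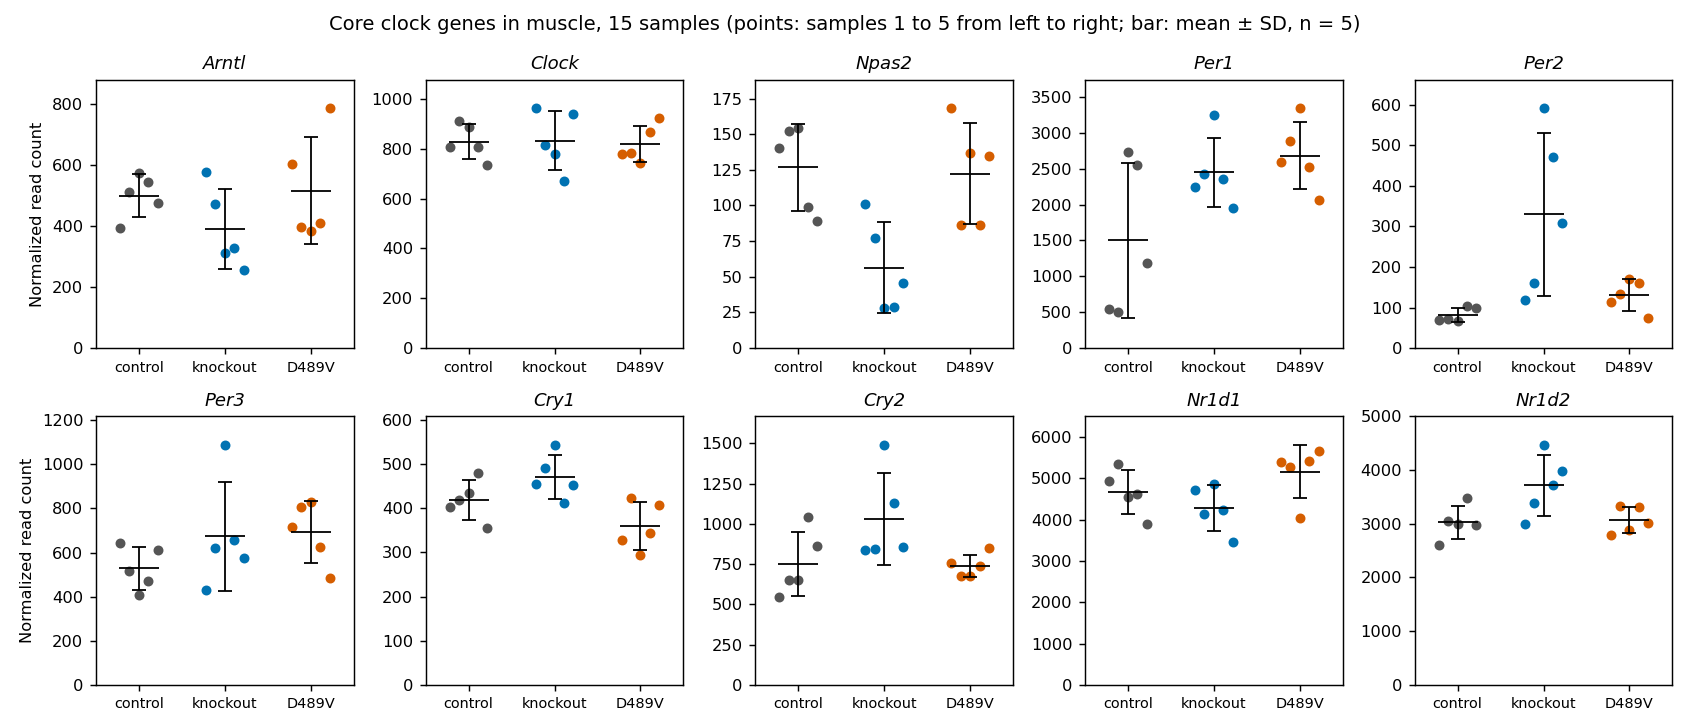
Normalized read count (y axis, from 0) of each of the 10 core clock genes in 5 control, 5 knockout and 5 D489V samples. Each point is a sample, in the order of its replicate number, and bars give the mean and SD (n = 5). Per2 reaches 308 to 591 and Npas2 falls to 28 to 46 in knockout 3 to 5, while controls 1 and 2 hold the lowest Per1 values, 548 and 501.

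In knockout against control muscle, Per2 was higher and Npas2 lower on average, and Per1 was higher, but no clock gene passed the test over all genes. In limma (adjusted p under 0.05), 0 of the 10 members were called, beside 0.00656% of 15234 genes tested. At an unadjusted p under 0.05, 4 members (Per2, Per1, Cry2 and Nr1d2) were higher and 1 (Npas2) was lower, 5 in all against 15.1% of all genes. The groups did not overlap for 1 member, Per2, against 2.24% of all genes. The median log2 change was 0.23 over the members and 0.01 over all genes.

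In D489V against control muscle, the 3 Per genes were the ones that differed most, and again none passed. In limma 0 of 10 members were called, beside 0.0587% of 15339 genes. At an unadjusted p under 0.05, 3 members (Per1, Per2 and Per3) were higher and 0 lower, against 9.43% of all genes. The samples overlapped for all 10 members, while 2.16% of all genes had groups that did not overlap. The median log2 change was 0.02 over the members and 0 over all genes. These 5 controls are the same samples as in the comparison of the knockout, so the 2 sets of changes are not independent.

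In knockout against D489V muscle, Cry1 was higher and Npas2 lower in the knockout. These 2 of 10 members were called by limma, beside 20.8% of 15299 genes. The 1 that rose compares with 10.5% of all genes called higher in the knockout, and the 1 that fell with 10.3% called lower, so the share of members called was close to that of all genes. At an unadjusted p under 0.05, 4 members were higher (Cry1, Cry2, Per2 and Nr1d2) and 2 lower (Npas2 and Nr1d1), 6 of 10 against 37.7%. Not 1 member had groups without overlap, against 13.9% of all genes, and the median log2 change was -0.03 over the members and 0 over all genes.

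**Figure D2:**
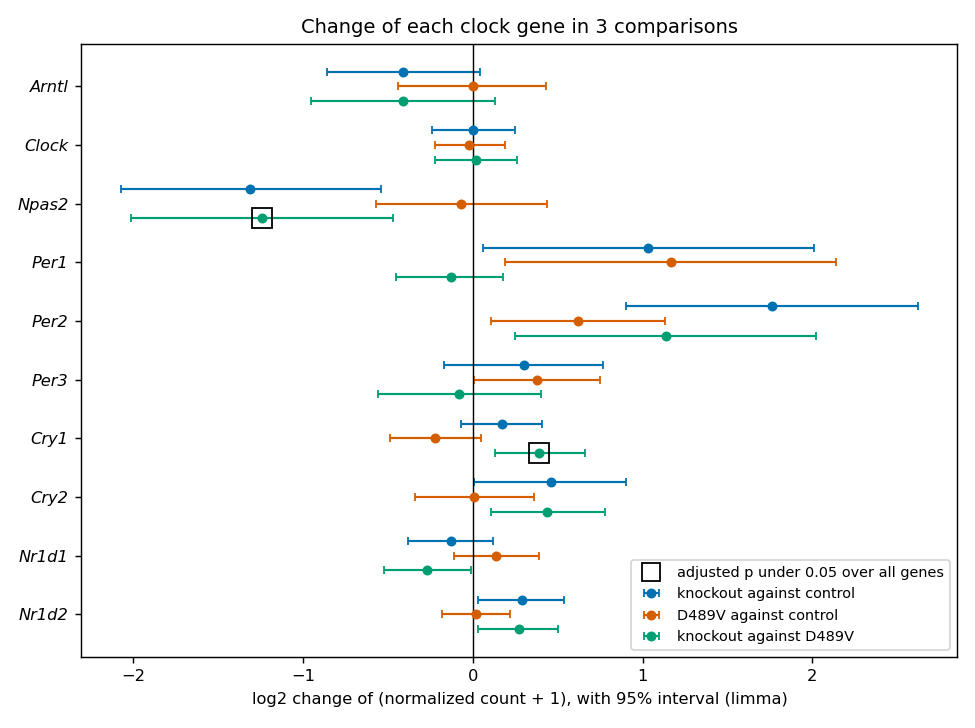
Log2 change of each core clock gene (x axis, on the scale of log2 of the normalized count plus 1) with its 95% interval from limma, in 3 comparisons of 5 against 5 samples. Black squares mark the changes called over all genes, Npas2 at -1.24 and Cry1 at 0.39 in knockout against D489V; the widest intervals are those of Per1, Per2 and Npas2.

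Of the activators, Arntl (ENSMUSG00000055116, chromosome 7, 113207465 to 113314126, plus strand) encodes BMAL1, the partner shared by CLOCK and NPAS2. Its normalized counts were 393, 513, 574, 545 and 476 in controls, 579, 472, 312, 330 and 257 in knockout, and 604, 397, 385, 411 and 786 in D489V. Knockout 3 to 5 were the 3 lowest of all samples and D489V 5 the highest, while knockout 1 lay above every control. The log2 change in knockout against control was -0.41 (standard error, SE, 0.206, limma adjusted p 0.357, exact permutation p 0.119), and it was 0.00 in D489V against control. In knockout against D489V it was -0.41 (SE 0.248, limma adjusted p 0.249). Without knockout 3 to 5 and control 5, the samples with B lymphocyte marker RNA, the change was 0.06 against control and 0.08 against D489V, so its direction rested on those samples.

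Clock (ENSMUSG00000029238, chromosome 5, 76209868 to 76304792, minus strand) encodes the other subunit of the activator, a histone acetyltransferase. It was 827.8 ± 70.1 (SD, n = 5) in controls, 832.6 ± 119.3 in knockout and 819.0 ± 73.6 in D489V. Control samples spanned 734 to 909, knockout samples 670 to 961 and D489V samples 744 to 924, so the 3 groups covered nearly the same range. The 95% interval of the log2 change reached -0.24 and 0.25 for knockout, and -0.22 and 0.19 for D489V, against control, so changes within these limits could not be told from none.

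Npas2 (ENSMUSG00000026077, chromosome 1, 39193731 to 39363236, plus strand) encodes a relative of CLOCK that can take its place beside BMAL1. Control samples held 140, 152, 154, 99 and 89 normalized counts of Npas2. The values were 101, 77, 28, 29 and 46 in knockout and 168, 86, 137, 86 and 135 in D489V. Knockout 3 to 5 lay well below every other sample, and knockout 1 lay among the controls. Npas2 fell by 1.24 on the log2 scale in knockout against D489V (SE 0.353, limma adjusted p 0.0299, exact permutation p 0.0317), with 4 of 5 knockout samples below every D489V sample. Against control the log2 change was -1.31 with a standard error of 0.351, which did not pass over all genes (limma adjusted p 0.276, exact permutation p 0.0238).

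The call for Npas2 depended on single samples. Without knockout 3, the sample whose Xist goes against its label, the log2 change against D489V was -1.04 and the limma adjusted p 0.0605. Without knockout 4, knockout 5, D489V 1 or D489V 3, it was -1.05, -1.22, -1.12 and -1.19, with adjusted p of 0.0595, 0.0584, 0.08 and 0.0623. Without the samples with B lymphocyte marker RNA, where only knockout 1 and 2 were left, it was -0.42 (limma adjusted p 0.357), and -0.60 against control (adjusted p 0.703). Over all alternatives the adjusted p ran from 0.00718 to 0.357 against D489V and from 0.033 to 0.703 against control. Control 5 also held B lymphocyte and slow fibre marker RNA, and its Npas2, at 89, was the lowest of the controls and above that of knockout 2 to 5.

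Of the repressors, Per1 (ENSMUSG00000020893, chromosome 11, 69095217 to 69109960, plus strand) encodes a PERIOD protein whose gene also answers to glucocorticoid and cyclic AMP signals. Its normalized counts were 548, 501, 2738, 2551 and 1180 in controls. They were 2250, 2428, 3249, 2353 and 1954 in knockout and 2586, 2885, 3338, 2521 and 2070 in D489V. Controls 1, 2 and 5 lay below every sample of both other groups, and controls 3 and 4 lay within their range. The log2 change was 1.03 in knockout (SE 0.446, limma adjusted p 0.319, exact permutation p 0.127) and 1.17 in D489V (SE 0.446, limma adjusted p 0.43, exact permutation p 0.0873). The coefficient of variation was 71.7% in controls, 19.8% in knockout and 17.5% in D489V, and neither change passed the test.

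Per2 (ENSMUSG00000055866, chromosome 1, 91415982 to 91459324, minus strand) encodes the PERIOD protein most often used to follow the phase of the clock. Control samples held 70, 72, 67, 103 and 100 normalized counts of Per2. The values were 118, 160, 591, 471 and 308 in knockout and 113, 133, 171, 161 and 74 in D489V. All 5 knockout samples were above all 5 controls, knockout 3 to 5 were above every other sample, and knockout 1 and 2 lay within the D489V range. The log2 change in knockout against control was 1.76 with a standard error of 0.394. The exact permutation p was 0.00794, the smallest that 5 against 5 samples can give, and the limma adjusted p over all genes was 0.227.

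In D489V against control, Per2 changed by 0.62 (SE 0.233, limma adjusted p 0.418, exact permutation p 0.0397), with 4 of 5 D489V samples above all controls. In knockout against D489V it was 1.14 (SE 0.407, limma adjusted p 0.0644, exact permutation p 0.0794). Without knockout 3 the log2 change against control was 1.49 (adjusted p 0.399). Without the samples with B lymphocyte marker RNA, where only knockout 1 and 2 were left, it was 0.83 against control (adjusted p 0.703) and 0.13 against D489V (adjusted p 0.795). With the slow fibre markers as a covariate it was 1.81 against control (limma adjusted p 0.00635), past the threshold, and 1.32 against D489V (adjusted p 0.00385). That covariate was added after the data were seen. Over all alternatives the adjusted p against control ran from 0.00635 to 0.703, and against D489V from 0.00385 to 0.795. Control 5, the other sample with B lymphocyte marker RNA, held a Per2 of 100 and control 4 one of 103, against 67 to 72 in controls 1 to 3.

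Per3 (ENSMUSG00000028957, chromosome 4, 151003652 to 151044665, minus strand) encodes the third PERIOD protein, which is the least needed for rhythms. It was 529.0 ± 97.9 (SD, n = 5) in controls, 674.0 ± 246.3 in knockout and 692.2 ± 141.8 in D489V. Knockout 3, at 1087, was the highest of all samples, and the other knockout samples lay between 431 and 657, close to the control range of 407 to 642. The log2 changes were 0.30 in knockout (SE 0.216, limma adjusted p 0.489) and 0.38 in D489V (SE 0.168, limma adjusted p 0.505). Without knockout 3 the first of these was 0.11 (adjusted p 0.781), and without the samples with B lymphocyte marker RNA it was 0.04 (adjusted p 0.945).

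Cry1 (ENSMUSG00000020038, chromosome 10, 85131700 to 85185064, minus strand) encodes a CRYPTOCHROME, the strongest repressor of the activator pair. Control samples held 403, 418, 434, 480 and 356 normalized counts of Cry1. The values were 455, 492, 543, 412 and 452 in knockout and 329, 424, 294, 344 and 407 in D489V. Only knockout 4 lay within the D489V range, and the controls lay between and across both groups. Cry1 rose in knockout against D489V by 0.39 on the log2 scale (SE 0.121, limma adjusted p 0.0379, exact permutation p 0.0159). Against control the log2 change was 0.17 in knockout (limma adjusted p 0.439) and -0.22 in D489V (limma adjusted p 0.614).

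The log2 change of Cry1 in knockout against D489V lay between 0.31 and 0.46 in every alternative run, but its call did not hold in all. The limma adjusted p was 0.0632 with no filter on low values, 0.071 with sample weights, 0.0758 with the replicate block and 0.146 without the samples with B lymphocyte marker RNA. It was 0.0589, 0.0676, 0.0813 and 0.0588 without knockout 1, 2, 3 and 5. It was 0.0928, 0.0835 and 0.0563 without D489V 1, 3 and 4. Its range over all alternatives was 0.0308 to 0.146.

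Cry2 (ENSMUSG00000068742, chromosome 2, 92403646 to 92434043, minus strand) encodes the second CRYPTOCHROME. Its normalized counts were 547, 653, 651, 1040 and 860 in controls. They were 836, 841, 1488, 1129 and 854 in knockout and 757, 678, 678, 735 and 847 in D489V. Knockout 3 and 4 were the highest of all samples, and D489V 5 lay within the knockout range. The log2 change was 0.46 in knockout against control (SE 0.203, limma adjusted p 0.324) and 0.44 in knockout against D489V (SE 0.155, limma adjusted p 0.0602). Without knockout 3 these were 0.31 (adjusted p 0.494) and 0.30 (adjusted p 0.0921), and without the samples with B lymphocyte marker RNA 0.26 (adjusted p 0.725) and 0.19 (adjusted p 0.326). Of its 6320 exon bases, 4.67% are shared with D930015M05Rik on the other strand. The counting's strand setting is not stated, so reads of the 2 genes may not be separated there.

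Of the second loop, Nr1d1 (ENSMUSG00000020889, chromosome 11, 98767932 to 98775333, minus strand) encodes REV-ERB alpha, a haem-binding receptor that represses Arntl. Control samples held 4941, 5359, 4548, 4614 and 3884 normalized counts of Nr1d1. The values were 4723, 4134, 4856, 4236 and 3468 in knockout and 5408, 5283, 4031, 5410 and 5660 in D489V. D489V samples other than D489V 3 lay above every knockout sample, and the controls spanned most of both groups. The log2 change was -0.13 in knockout against control (limma adjusted p 0.582), 0.14 in D489V against control (limma adjusted p 0.736) and -0.27 in knockout against D489V (SE 0.117, limma adjusted p 0.115). Of its 3077 exon bases, 8.55% are shared with Thra, the thyroid hormone receptor alpha gene on the other strand, so a part of the reads may not be separated.

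Nr1d2 (ENSMUSG00000021775, chromosome 14, 18204054 to 18239127, minus strand) encodes REV-ERB beta. Control samples held 2613, 3057, 3005, 3486 and 2981 normalized counts of Nr1d2. They were 3001, 3387, 4465, 3731 and 3987 in knockout and 2789, 3324, 2890, 3320 and 3021 in D489V. Knockout 3 to 5 were above every other sample, and knockout 1 and 2 lay among the controls. The log2 change was 0.29 in knockout against control (SE 0.116, limma adjusted p 0.312) and 0.27 in knockout against D489V (SE 0.108, limma adjusted p 0.0942). Without the samples with B lymphocyte marker RNA these were 0.08 (adjusted p 0.86) and 0.06 (adjusted p 0.762). In D489V against control it was 0.02, with a 95% interval from -0.18 to 0.22.

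**Figure D3:**
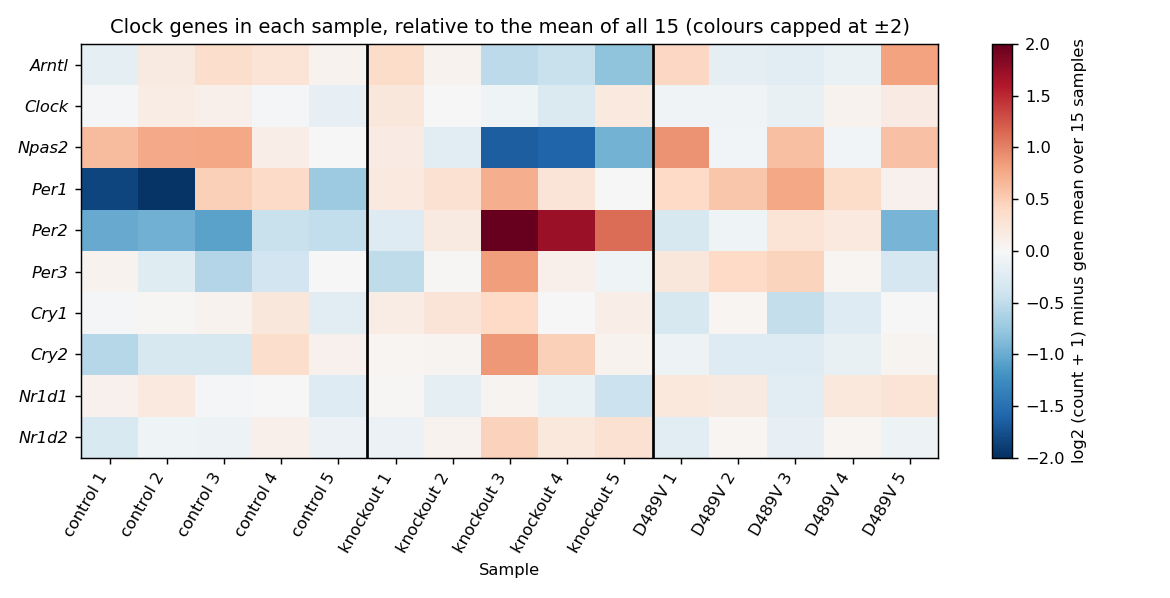
Core clock genes (rows) in each of 15 samples (columns), as log2 of the normalized count plus 1 minus the gene's mean over all samples, with colours capped at ±2. Red is above and blue below the mean; knockout 3 to 5 show high Per2 with low Npas2 and Arntl, and controls 1 and 2 show low Per1.

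For 4 members the same 3 knockout samples, 3 to 5, were at the extremes: they were the highest 3 for Per2 and Nr1d2 and the lowest 3 for Npas2 and Arntl. The log2 ratio of Per2 to Arntl, 2 genes on opposite arms of the loop, was 0.92, 0.51 and 0.26 in knockout 3, 4 and 5, where Per2 had the higher count. It ran from -3.41 to -1.17 in the other 12 samples, D489V 3 being the highest of these and knockout 1 and 2 lying at -2.29 and -1.56. The log2 ratio of Per2 to Npas2 was 4.4, 4.02 and 2.74 in knockout 3 to 5 and at most 1.06 elsewhere. Knockout 3 to 5 are also 3 of the 4 samples with B lymphocyte marker RNA and the 3 with the lowest endothelial marker sums. They had the lowest Pdgfrb of the knockout group. Control 5, the fourth sample with B lymphocyte marker RNA, had a log2 ratio of Per2 to Arntl of -2.25, the highest of the 5 controls (-3.1 to -2.25). Slow fibre marker sums were 103066 to 163879 in knockout 3 to 5, 162300 in control 5 and 181923 in D489V 3, and 3439 to 68777 elsewhere. Control 5 and D489V 3 had the highest ratio of Per2 to Arntl of their groups, but D489V 5, with 49525, had the lowest, -3.41. The part of these in the pattern was not tested. The fits with the slow fibre covariate, added after the data were seen, are no such test. Within the knockout that covariate splits as the pattern does, with marker sums of 3439 and 15231 in knockout 1 and 2.

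All 45 pairs of members were correlated on the log2 scale with permutation tests. Npas2 and Per2, whose 3 outlying knockout samples form a cluster of their own, and Per1, with controls 1 and 2 apart, were correlated without those samples. That left 21 pairs on 15 samples and 24 on 10 to 13. The correlation was positive in 22 pairs and negative in 23. By Pearson's r, 1 pair passed adjustment over the 45 pairs, Cry2 with Nr1d2, at r = 0.80 over 15 samples (permutation p 0.00041, adjusted 0.0184). Its Spearman rho was 0.63 (permutation p 0.0124, adjusted 0.187), which did not pass. Without the 2 samples farthest from the median of Cry2 its r was 0.55, within groups (deviations from the group means) it was 0.67, and with each sample left out in turn it lay between 0.66 and 0.85.

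Of the 21 pairs of an activator (Arntl, Clock, Npas2) with a repressor, 16 had a negative r, and none passed adjustment. Arntl with Per3 gave r = -0.59 and rho = -0.60 (permutation p 0.0217 and 0.0211, adjusted 0.163 and 0.238), and -0.75 without the 2 farthest samples. Clock with Per3 gave r = -0.61 and rho = -0.70 (permutation p 0.0167 and 0.00524, adjusted 0.15 and 0.148). Arntl with Nr1d2 gave r = -0.61 and rho = -0.47 (permutation p 0.0163 and 0.0808, adjusted 0.15 and 0.378). Arntl with Nr1d1, its repressor, gave a positive r of 0.54 and rho of 0.46 (permutation p 0.039 and 0.0839, adjusted 0.227 and 0.378), and r was 0.14 without the 2 farthest samples and so rested on them. In the 12 samples without knockout 3 to 5, Npas2 with Per2 gave r = -0.59 and rho = -0.57 (permutation p 0.0462 and 0.054, adjusted 0.227 and 0.366). Npas2 with Nr1d2 gave r = -0.71 and rho = -0.63 in the same samples (permutation p 0.0114 and 0.0297, adjusted 0.15 and 0.268).

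**Figure D4:**
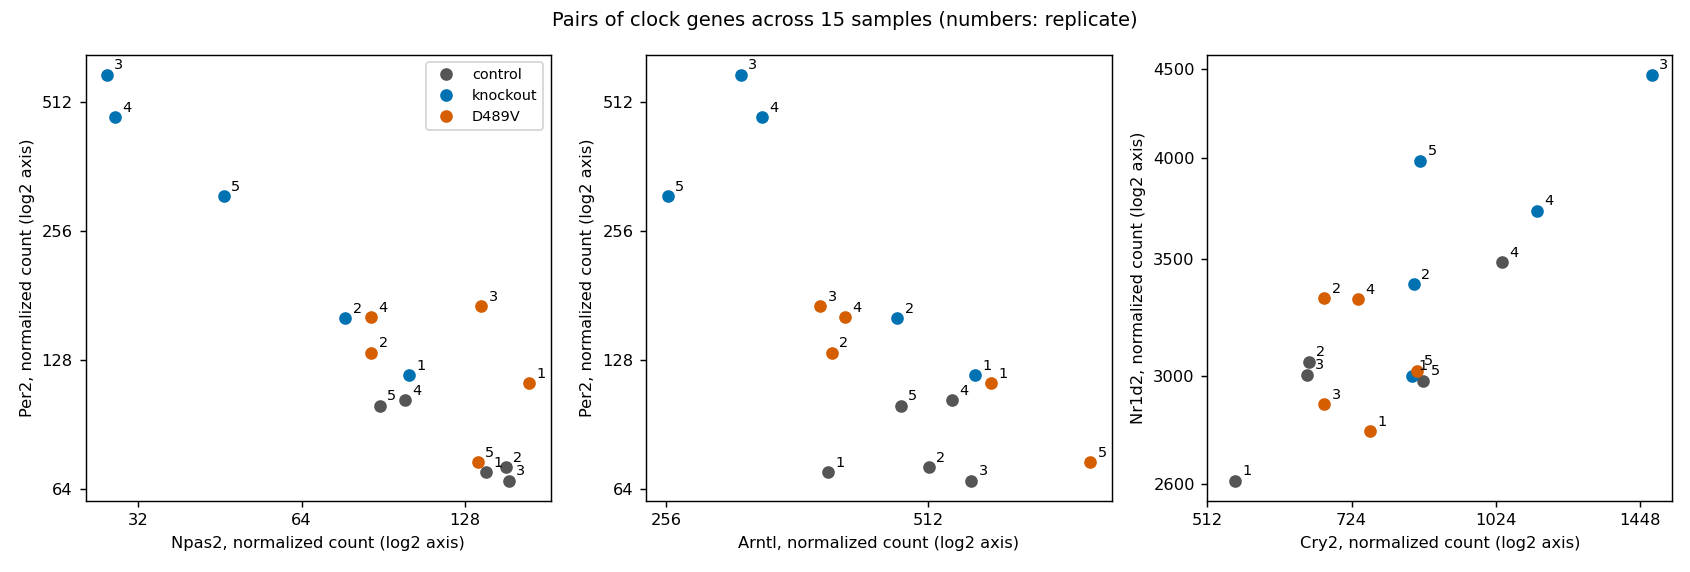
Normalized counts of 3 pairs of core clock genes in 15 samples, both axes on a log2 scale, with the replicate number beside each point. Knockout 3 to 5 lie apart at high Per2 (308 to 591) with low Npas2 and Arntl, and in the right panel Cry2 and Nr1d2 rise together, with knockout 3 highest for both.

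Among 12154 genes ranked by Spearman's rho over the 15 samples, those most like Arntl were Dennd2c (rho 0.92), Apbb2 (0.86), Klhl8 (0.85), Jup (0.83) and Phf13 (0.83). Those most opposite were Nudt6 (-0.87), 9530020I12Rik (-0.86), Zfp397 (-0.82), Fbl (-0.82) and Rpl17-ps10 (-0.80). Ciart, a repressor of the activator pair, had a rho of -0.71 with Arntl and Dbp one of -0.64, ranks 12125 and 12078 from the most alike. For Nr1d1 the most alike were Gm10110 (0.86), Ginm1 (0.86), Pex11a (0.86), Gstm1 (0.85) and Cbr1 (0.85). The most opposite were Casp12 (-0.85), Cbr2 (-0.84), Mppe1 (-0.83), Bcdin3d (-0.82) and Creld2 (-0.82). These are descriptions across samples that share depth and composition of tissue, with no test.

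The other genes of the clock were read from 4 lists. Of 11 output and second-loop regulators, 10 were tested. In limma 0 were called in knockout against control, where 5 had an unadjusted p under 0.05 and were higher and 1 was lower, and 0 in D489V against control, where 1 was higher unadjusted, beside 15.1% and 9.43% of all genes. In knockout against D489V, 4 rose and 1 fell, beside the shares of all genes given above. Those that rose were the bZIP activators Tef and Hlf, the bZIP repressor Nfil3, which binds the same D-box, and the bHLH repressor Bhlhe41.

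Nfil3 separated the knockout samples from the rest. Its normalized counts were 406, 491, 729, 565 and 428 in controls. They were 908, 861, 937, 1212 and 1206 in knockout and 664, 559, 419, 635 and 653 in D489V. Every knockout sample was above every sample of the other groups, knockout 1 and 2 included. The log2 change was 0.81 with a standard error of 0.147 against D489V (limma adjusted p 0.00564) and 0.98 with a standard error of 0.167 against control (limma adjusted p 0.15). The second of these did not pass.

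Tef was 7333.2 ± 592.4 (SD, n = 5) in knockout against 5492.4 ± 419.3 in D489V, a log2 change of 0.42 (limma adjusted p 0.00911), without overlap. Hlf was 207, 206, 447, 408 and 276 in knockout and 150 to 198 in D489V, a log2 change of 0.74 (limma adjusted p 0.035), again without overlap. Knockout 3 to 5 were highest for Hlf too. Bhlhe41 rose by 0.50 (limma adjusted p 0.0292), with groups that overlapped. Arntl2, a relative of Arntl, fell by 0.84 (limma adjusted p 0.00758), from 86 to 121 in D489V to 45 to 66 in knockout.

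Dbp, a bZIP activator driven through E-boxes, did not differ beyond its spread in any of the 3 comparisons. It was 2733.4 in controls, 3226.0 in knockout and 3411.2 in D489V on average, and its log2 changes were 0.17, 0.28 and -0.10 in the order used above (limma adjusted p 0.726, 0.728 and 0.81). Ciart changed by 0.71, 0.65 and 0.06 (adjusted p 0.5, 0.59 and 0.938) and Bhlhe40 by -0.16, 0.26 and -0.42 (adjusted p 0.67, 0.634 and 0.109). The ROR receptor Rora changed by 0.35, 0.02 and 0.33 (adjusted p 0.312, 0.97 and 0.0909).

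**Figure D5:**
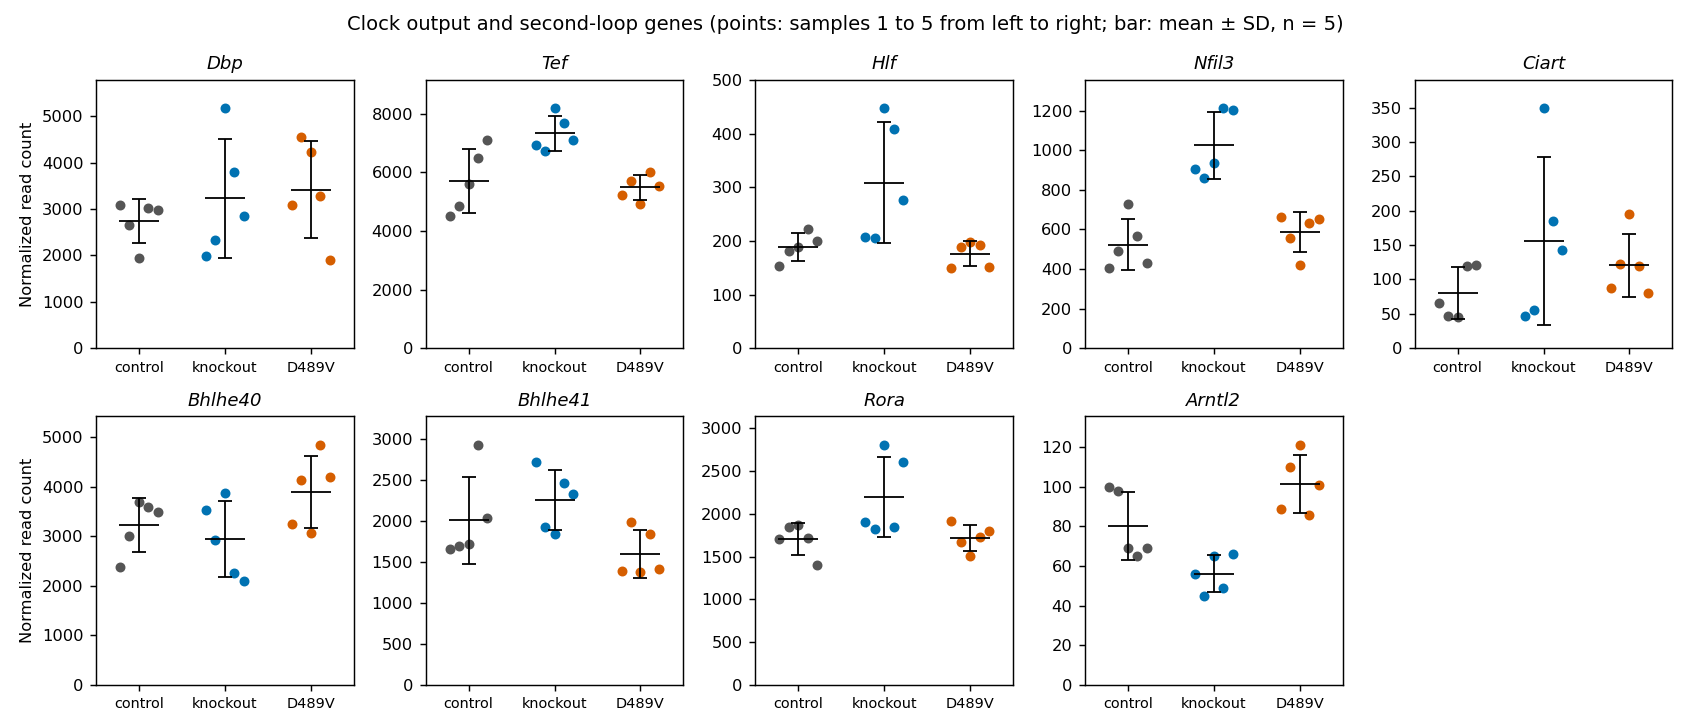
Normalized read count (y axis, from 0) of 9 output and second-loop regulators of the clock in 5 control, 5 knockout and 5 D489V samples, with the mean and SD (n = 5). Points are samples in the order of their replicate number; all knockout samples lie above the others for Nfil3 (861 to 1212), while Dbp overlaps in all 3 groups.

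Of 26 clock protein modifiers and cofactors, 25 were tested, and in knockout against D489V 5 rose and 1 fell by limma, beside 10.5% and 10.3% of all genes. Usp2, a deubiquitinase of clock proteins, rose by 0.67 (limma adjusted p 0.0046), Nampt, which makes NAD for the sirtuins, by 0.61 (adjusted p 0.0187), and Prkaa2, the AMPK subunit of muscle, by 0.58 (adjusted p 0.0469). The ubiquitin ligase subunits Fbxw11 and Btrc, which mark PER proteins for breakdown, rose as well, by 0.56 and 0.35 (adjusted p 0.0292 and 0.0313). Usp2 and Btrc had groups without overlap, but the D489V samples were split for the others. Prkaa2 was 2491 to 3688 in D489V 1 to 3, 5263 and 5393 in D489V 4 and 5, and 5201 to 6212 in knockout. For Nampt these were 2047 to 2354, 3154 and 3099, and 3113 to 4936. For Fbxw11 they were 829 to 951, 1488 and 1423, and 1475 to 1695. Csnk1e, a casein kinase that phosphorylates PER proteins, fell by 0.46 (limma adjusted p 0.0141), from a mean of 2249.4 in D489V to 1622.2. Against control, 0 were called in knockout (7 higher and 2 lower unadjusted, beside 15.1% of all genes) and 0 in D489V (0 higher and 0 lower unadjusted, beside 9.43%).

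Of 12 genes known to follow the muscle clock, all tested, 1 rose and 3 fell in knockout against D489V by limma, where 20.8% of all genes were called. Hk2, a hexokinase, rose by 0.62 (adjusted p 0.0261). Pfkfb3, which makes an activator of glycolysis, fell by 1.57 (limma adjusted p 0.00325), Dgat2, a triglyceride synthesis enzyme, fell by 1.54 (adjusted p 0.0152) and the tetraspanin Tspan4 fell by 0.50 (adjusted p 0.0159). In knockout against control, Hk2, Pfkfb3, Dgat2 and Tspan4 changed by 0.54, -0.67, -0.73 and -0.07. In D489V against control they changed by -0.08, 0.91, 0.81 and 0.43, and none of these passed. Adipocyte marker sums, which bear on Dgat2, were 6001 to 9536 in knockout, 15727 to 57399 in D489V and 1706 to 31598 in controls, all 6 markers being above 0 in every sample. Of these 6 markers 5 were lower in knockout than in D489V by limma. In controls 4 and 5, with the lowest adipocyte sums of all samples, 1706 and 3221, Dgat2 was 1156 and 1426, below the other 3 controls at 5490 to 6443. Their part in the result was not tested. Against control, 0 of the 12 were called in either group (1 higher and 1 lower unadjusted in knockout, beside 15.1% of all genes, and 3 higher and 1 lower in D489V, beside 9.43%).

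Of 13 genes of signals that reset the clock (immediate early and glucocorticoid response), all tested, 2 rose and 5 fell in knockout against D489V by limma, where 10.5% of all genes rose and 10.3% fell. The 5 were the immediate early genes Fosb, Fos, Egr1 and Junb, with log2 changes of -2.09, -1.79, -1.65 and -1.31 in the limma fit, and the kinase gene Sik1, at -0.59. Their adjusted p were 0.00403, 0.00155, 0.00307, 5.30e-04 and 0.0159. In knockout against control the log2 changes of these 5 were -0.94, -0.82, -1.23, -0.42 and 0.17, in the same order. In D489V against control they were 1.15, 0.97, 0.42, 0.89 and 0.76, and none of these passed. The 2 that rose were Nr3c1, the glucocorticoid receptor gene, by 0.42 (limma adjusted p 0.0372) and the cyclic AMP modulator Crem by 0.40 (adjusted p 0.0345). Against control, 0 were called in knockout (5 higher and 1 lower unadjusted, beside 15.1% of all genes) and 0 in D489V (6 higher and 0 lower unadjusted, beside 9.43%).

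Genes of this list differed in how they stood to Per1 within the controls. Sik1 was 474 and 487 in controls 1 and 2 and 671 to 987 in controls 3 to 5, and Tsc22d3, a glucocorticoid response gene, was 2999 and 3324 against 4677 to 5228, both lower where Per1 was lowest. Not all of the list did so, Klf9 being lowest in control 5, at 3610 beside 3718 and 3863 in controls 1 and 2. Genes of other lists were low in controls 1 and 2 too, such as Pdk4, at 4620 and 5687 against 20084 to 27971. Fos was 1504 and 2109 in controls 1 and 2, where Per1 was lowest, and 423 to 683 in controls 3 to 5, while D489V samples held 1092 to 2295 of Fos beside the high Per1 given above. Endothelial, erythrocyte and Schwann cell marker sums differed between knockout and D489V as well, at 6761 to 10523 against 12427 to 14231, 3175 to 8032 against 12454 to 22120, and 4669 to 7409 against 9475 to 39863. By limma, 5 of 5, 5 of 5 and 4 of 5 tested markers of these lists were lower in the knockout, and no marker of the 3 lists was at 0 in all samples. Their part in the changes of the clock lists was not tested.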

How the data were processed

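Poly(A) RNA of mouse skeletal muscle was sequenced from a strand-preserving library, per the labels' protocols. The unit of the deposited tables is a score, since the authors' file names speak of normalized gene counts and the numbers are whole. Trim Galore 0.6.0, cutadapt, FastQC, STAR 2.7.0e, DESeq2 1.26.0 and the GRCm38 build are named in the submitters' processing notes, without role or order. Normalization method and counting strand are not stated. Rounded normalized values keep no exact depth, so intervals come from the spread of samples alone.

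The 2 deposited tables were joined by gene identifier. Their 5 control columns were identical (0 values differed), and each sample's median ratio to the overall geometric mean lay between 1.0069 and 1.0097, so knockout and D489V were compared directly. All 55536 identifiers matched GENCODE M21. Each comparison was fitted over all genes that reached 10 in 5 or more of the 10 samples, on log2(value + 1), which understates changes of low genes, with limma 3.58.1 in R 4.3.3 (eBayes with trend, two-sided, Benjamini-Hochberg, called at adjusted p under 0.05), and the script was tested on simulated data. Exact two-sided permutation tests used all 252 splits of 5 against 5 samples, and correlations used 100000 permutations (two-sided; Python 3.11.15, scipy 1.17.1). A member was taken to have separate clusters where a gap with at least 2 samples on each side exceeded 0.25 of its range, a rule chosen after its values were seen.

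The text names all 10 members, the fixed regulators Dbp, Tef, Hlf, Nfil3, Bhlhe40, Bhlhe41, Ciart and Rora (1 more is not reported here), the called genes of the other lists with at most 3 rises and 3 falls each, and the 5 genes most and least like Arntl and Nr1d1. Beyond this rule, Fbxw11, Btrc, Junb and Sik1 complete their lists. Fos, Sik1, Tsc22d3, Klf9 and Pdk4 in controls were chosen after their values were seen. Members and lists were chosen with earlier results of these data known. Replicate numbers recur in the labels, which do not say that they pair samples, and not every same-numbered pair deviated together. Alternatives changed the pseudocount, filter, scaling, variance model and fit, added the replicate block and left out each sample. After seeing the data, 2 more and the cluster rule were added. Those 2 were the slow fibre covariate and the fit without the samples with B lymphocyte marker RNA.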

Additional observations from a re-analysis of the deposited data

Results flagged for a closer look

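In groups of 5 samples, a lowest or highest sample was singled out where its gap to the next sample, as a share of the group's range, exceeded 0.71. Among 99 such groups (33 genes in 3 groups), 2 samples met this, while chance alone gives about 1 in 20, or 4.95. The Nr1d1 value of D489V 3 was 4031 and the rest of its group lay at 5283 to 5660, a gap of 0.797 of the range. Its Dgat2 value was 1864, below the 6238 to 9035 of the rest, a gap of 0.765 of the range. D489V 3 also had the highest slow fibre marker sum of all samples, 181923, the highest Schwann cell marker sum, 39863, and the lowest adipocyte marker sum of its group, 15727. Without it, the log2 change of Nr1d1 in knockout against D489V was -0.35 (limma adjusted p 0.0412), past the threshold, against -0.27 with it.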

How the results depend on the processing

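Each of the 30 changes of members was recomputed under 24 alternatives, giving 720 values: 666 kept direction and side of the threshold, 14 passed it newly, 17 no longer passed it and 23, in 8 results, changed sign. A change that rounds to 0.00 was taken to have no direction, a choice made after seeing the values. Changes of sign touched Arntl in knockout (0.06 against control and 0.08 against D489V without the samples with B lymphocyte marker RNA) and otherwise changes near 0. In D489V against control these were Clock (-0.06 to 0.02), Npas2 (-0.19 to 0.05), Nr1d2 (-0.03 to 0.07) and Cry2 (-0.09 to 0.14) with each sample left out, and Cry2 at -0.03 with the slow fibre covariate. In knockout against D489V, Clock was -0.03 with quantile normalization, -0.01 with the slow fibre covariate and -0.04 to 0.09 with each sample left out, and Per3 was -0.27 to 0.06, the highest without knockout 1.

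Called members in knockout against D489V numbered 2 in the reported fit, 1 with no filter, 5 with the slow fibre covariate, and 0 to 3 with each sample left out (0 without knockout 3, knockout 5 or D489V 1). Without the samples with B lymphocyte marker RNA, where only knockout 1 and 2 were left, they numbered 0. In knockout against control they numbered 0, and 2 (Per2 and Npas2) with the slow fibre covariate.

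Over all genes, knockout against control gave 1 called gene, 3 with quantile normalization, 16 in one fit of all 15 samples, 3 without the samples with B lymphocyte marker RNA, 17 with the slow fibre covariate and 1 to 7 with samples left out. D489V against control gave 9, of which 44.4% were higher, and 19 and 21 at pseudocounts 5 and 10, 4 at a mean of 50 or more, 17 with upper-quartile scaling (58.8% higher), 16 with quantile normalization, 19 with median-of-ratios scaling, 21 with robust eBayes, 86 with sample weights, 1 in the joint fit, 95 with the slow fibre covariate and 2 to 26 with samples left out. Knockout against D489V gave 3181, and 1398 to 3686 with samples left out (1398, 1526 and 1989 without D489V 1, 2 and 3). It gave 586 without the samples with B lymphocyte marker RNA, where only knockout 1 and 2 were left. Why these counts moved was not tested.

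With the replicate block, 2208 genes and 2 members were called in knockout against D489V, where Per2 (1.14, limma adjusted p 0.0419) took the place of Cry1 (0.39, adjusted p 0.0758). It called 1 gene in knockout and 7 in D489V against control, with 0 members, and changed no other call of a member. Same-numbered samples correlated at -0.21 to 0.24, -0.4 to 0.39 and -0.11 to 0.1 in the 3 comparisons, so the numbers were not taken to pair samples. Normalization leaves the read depth behind Npas2 and Per2, the lowest members, unknown.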
